A study of Mus musculus with 14 samples.

Results

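Distal regions that stayed accessible through 24 h of GATA6-driven differentiation and had no peak at 48 h were examined here, 3228 regions of the 121891 autosomal regions in the series. The members were selected on their peak calls. Overlapping peaks of all 14 lists, sharing 1 bp or more, were joined into regions, and a library was said to call a region when it had a peak there. A region was distal if its midpoint lay over 1 kb from every transcription start site (TSS) of a protein-coding gene, which held for 98942 regions. Members were distal, called in both 0 h libraries, in at least 1 library at each of 2, 4, 8, 16 and 24 h, and in neither 48 h library. Of 32435 distal regions called in both 0 h libraries, 18742 were called in neither 48 h library, and members were 17.2% of those and 9.95% of all 32435. The others were lost earlier, 5972 by 2 h, 5479 at 4 to 8 h and 4063 at 16 to 24 h, by their first time point without a call.

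Accessibility was measured by ATAC-seq, in which a transposase inserts sequencing adapters into open DNA, in KH2 mouse embryonic stem (ES) cells, strain label C57BL/6, with a doxycycline (Dox)-inducible TRE:GATA6-DSREd2 transgene that all samples carried. Cells at 0 h grew in 2i medium with LIF, without Dox. Induction was in serum medium with LIF and Dox at 1 µg/mL, and for the 16, 24 and 48 h samples Dox was present for 12 h and then withdrawn. Each of the 7 time points had 2 libraries, so the change of medium coincides with induction, all cells are 1 cell line, and the transgene acts on top of the endogenous locus. In these bulk samples, fewer cells with an open region and less opening per cell cannot be told apart. The study describes its replicates as independent experiments, but the labels do not say whether these libraries came from separate cultures, so p-values measure the spread between libraries, which may be technical.

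Enhancers are distal elements that open where transcription factors bind and displace nucleosomes. In ES cells, which resemble the epiblast (Epi) of the blastocyst, many are held open by OCT4 and SOX2 together with ESRRB, KLF and other factors. GATA6 directs the alternative primitive endoderm (PrE) fate, from which yolk sac endoderm forms, and Epi enhancers close as that fate is established.

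The lists held between 54301 and 63667 autosomal peaks per library. Sequencing depth is unknown from these lists, and a region without a peak may still be accessible below the calling threshold. The labelled cell state was checked by peaks within 1 kb of the TSSs of marker genes. The Nanog promoter was called in 2 of 2 libraries at 0 h and in 0 of 2 at 48 h. In between it varied, with 0 of 2 at 8 h and 2 of 2 at 16 h. The Foxa2 promoter was called in 0 of 2 at 0 h and in 2 of 2 from 8 h on. That of Klf4 was called in 1 of 2 at both 0 and 48 h. The Gata4 promoter was called in 1 of 2 at 0 h and 2 of 2 at 48 h, and that of Sox7 in 2 of 2 at both. The promoters of Pou5f1, Sox2, Esrrb and Zfp42 were called in all 14 libraries, as were those of Gata6, Sox17, Pdgfra and Dab2. Promoter peaks alone thus separate the end states at few of these markers.

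Sequences are given for members with the highest peak scores, as the highest-ranked peaks before the loss, and for members nearest to pluripotency genes that hold a searched motif. Each sequence is the central 200 bp of the merged region, plus strand, from the RefSeq sequence of GRCm38.p6, 5′ to 3′. Capitals mark matches on either strand to the motif of GATA factors, searched as AGATAA, or to 1 of 8 pluripotency motifs. These are Oct4-Sox2 (TTGTNATGC), POU octamer (ATGCAAA), SOX (AACAANG), ESRR/NR5A (CAAGGNCA), KLF (GGGTGTGG), STAT (TTCCNGGAA), PRDM14 (GGTCTCTAA) and TFCP2L1. Where an Oct4-Sox2 match and an octamer match overlap, they form 1 run of capitals. Matches to the other motifs searched are not marked.
Lefty2, chr1:180888812-180889011: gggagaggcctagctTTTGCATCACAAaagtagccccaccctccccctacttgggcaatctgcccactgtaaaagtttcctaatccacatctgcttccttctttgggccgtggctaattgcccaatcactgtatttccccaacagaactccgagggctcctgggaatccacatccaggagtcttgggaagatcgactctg
Gulp1, chr1:44613535-44613734: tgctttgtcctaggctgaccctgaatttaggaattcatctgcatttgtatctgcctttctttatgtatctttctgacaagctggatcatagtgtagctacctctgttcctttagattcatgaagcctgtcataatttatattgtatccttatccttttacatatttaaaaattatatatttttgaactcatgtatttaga
Nostrin, chr2:69047936-69048135: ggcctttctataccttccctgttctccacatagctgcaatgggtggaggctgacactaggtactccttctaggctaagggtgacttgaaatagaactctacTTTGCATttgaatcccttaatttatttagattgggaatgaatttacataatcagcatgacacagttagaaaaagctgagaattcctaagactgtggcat
Klf5, chr14:99324625-99324824: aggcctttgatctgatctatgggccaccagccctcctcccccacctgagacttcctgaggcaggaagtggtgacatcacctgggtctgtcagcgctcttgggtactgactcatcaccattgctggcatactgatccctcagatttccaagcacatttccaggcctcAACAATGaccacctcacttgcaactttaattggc
Tfap2c, chr2:172577295-172577494: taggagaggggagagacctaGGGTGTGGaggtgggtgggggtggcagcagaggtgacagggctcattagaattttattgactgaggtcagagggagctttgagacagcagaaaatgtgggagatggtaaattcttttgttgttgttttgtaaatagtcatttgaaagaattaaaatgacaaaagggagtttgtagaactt
Esrrb, chr12:86455160-86455359: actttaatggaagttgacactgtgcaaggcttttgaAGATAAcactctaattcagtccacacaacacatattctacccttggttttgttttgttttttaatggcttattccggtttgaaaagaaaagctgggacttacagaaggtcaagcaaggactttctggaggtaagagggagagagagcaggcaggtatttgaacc
Zfp42, chr8:43320867-43321066: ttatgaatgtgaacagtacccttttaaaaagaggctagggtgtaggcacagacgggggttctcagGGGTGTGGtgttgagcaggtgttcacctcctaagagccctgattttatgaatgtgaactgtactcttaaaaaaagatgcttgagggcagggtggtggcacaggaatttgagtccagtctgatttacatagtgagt
Utf1, chr7:139945701-139945900: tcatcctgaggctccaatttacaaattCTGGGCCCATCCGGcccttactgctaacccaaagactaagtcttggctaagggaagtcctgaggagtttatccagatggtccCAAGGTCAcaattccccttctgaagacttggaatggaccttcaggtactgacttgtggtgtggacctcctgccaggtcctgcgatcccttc

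The Lefty2 member, 4196 bp from the TSS of this NODAL inhibitor, holds an octamer match that overlaps an Oct4-Sox2 match on the reverse strand, 82 and 78 bp before the region's centre. The Nostrin member, in an intron 87764 bp from the nearest TSS, holds 1 octamer match close to its centre. The Gulp1 member, in an intron 61038 bp from the TSS of an adaptor gene for engulfment, holds none of these motifs and has a GC content of 32%. The Nostrin and Gulp1 members lie beyond the 50 kb used to assign regions to genes, and are named only by their nearest TSS. The Esrrb member lies in an intron, 14857 bp from the nearest TSS, and holds a GATA match and no pluripotency motif. The Zfp42 and Tfap2c members each hold a KLF match, the Klf5 member a SOX match, and the Utf1 member an ESRR/NR5A and a TFCP2L1 match. A match is a description of the letters and not a bound site.

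Calls over time were examined first. At 2, 4, 8 and 16 h each library called between 93.0% and 96.9% of the members, and at 24 h the libraries called 78.0% and 83.6%. Since these calls chose the members, they are a description. In all, 1552 members, 48.1%, were called in all 12 libraries of 0 to 24 h, 1054 in 11 of them and 18 in only 7. At 24 h, 1986 members were called in both libraries and 1242 in 1, whereas at 16 h 2913 were called in both and 315 in 1.

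Peak scores were lower at 24 h than before. Each deposited peak carries 1 unnamed score, so the score was turned into a percentile, the rank of a peak within its own library from 0 to 100. The median percentile of the called members was 64.2 and 65.3 in the 0 h libraries, 62.3 and 62.9 at 2 h, and 60.5 and 62.9 at 4 h. It was 54.5 and 53.6 at 8 h and 55.2 and 58.8 at 16 h. In the 24 h libraries it was 28.4 and 28.9. The 24 h libraries thus stood below all others, and the decline before 16 h was small beside the fall that followed. Distal regions called in all 14 lists had a median of 71.6 and 72.2 at 24 h, above their 68.2 and 69.6 at 0 h. Regions lost at 16 to 24 h started at 62.0 and 63.4, near the members, but were already at 33.6 and 32.8 at 8 h, where the members were still above 50. These classes were chosen by calls in the same libraries, so their scores are set side by side without a test.

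**Figure D1:**
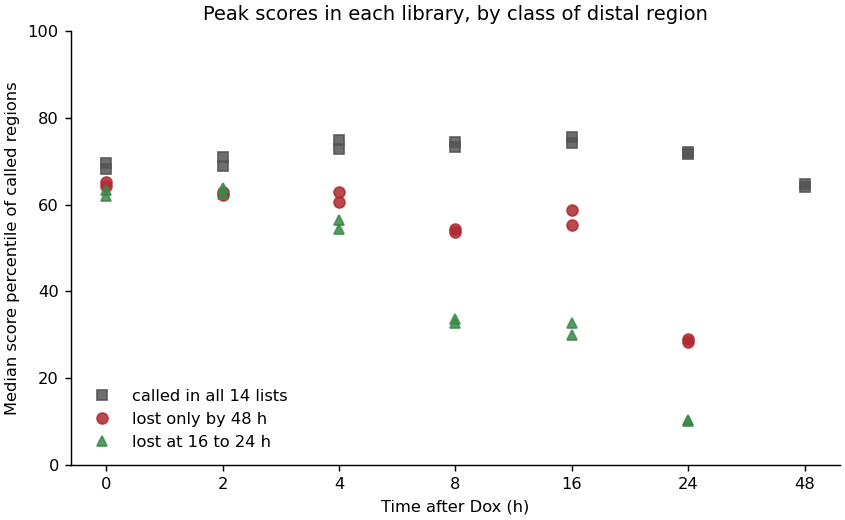
Median score percentile (y axis, 0 to 100 within each library) of the called regions of 3 classes of distal region against time after Dox in h (x axis, time points evenly spaced), 1 point per library. Members (circles) stayed between 53.6 and 65.3 through 16 h and were at 28.4 and 28.9 at 24 h, while regions called in all 14 lists (squares) stayed above 64 throughout.

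To see how far the missing 48 h calls recur, distal regions called at 0 to 24 h and not at 48 h were defined from 1 replicate number. They were then read in the libraries of the other number, whose calls took no part in that choice. Replicate 1 defined 2914 such regions and replicate 2 defined 3061. The held-out libraries called 94.7% and 93.3% of them at 0 h, 96.3% and 93.7% at 2 h, 97.9% and 96.0% at 4 h, and 95.6% and 94.8% at 8 h. They called 97.1% and 95.7% at 16 h, 83.8% and 77.4% at 24 h, and 24.6% and 18.6% at 48 h. All 12 libraries of 0 to 24 h lay above both 48 h libraries, and all 10 libraries of 0 to 16 h lay above both 24 h libraries.

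The share called at 48 h was 21.6% ± 4.23 (SD, n = 2), against 93.0% ± 6.10 (SD, n = 12) at 0 to 24 h. The difference was -71.4 percentage points (exact two-sided permutation test, p = 0.0220, adjusted p = 0.0303 over 3 tests). A minority of the regions defined from 1 number therefore still had a 48 h peak in the other library. At 24 h the share was 80.6% ± 4.48 (SD, n = 2), against 95.5% ± 1.43 (SD, n = 10) at 0 to 16 h, a difference of -14.9 percentage points (exact two-sided permutation p = 0.0303, adjusted p = 0.0303). The median score percentile of the called regions was 64.3 ± 3.46 (SD, n = 10) at 0 to 16 h and 37.6 ± 1.94 (SD, n = 2) at 24 h, a difference of -26.7 (exact two-sided permutation p = 0.0303, adjusted p = 0.0303). With peaks ranked by width in place of score, that difference was -7.78 with the same p in the exact permutation test. Where a region was still called at 48 h, its median percentile was 16.4 ± 0.875 (SD, n = 2). Each p is the smallest these numbers of libraries allow. The regions were chosen for a missing 48 h call in 1 replicate. At each time point, choosing regions by a missing call went with a lower share there in the other library. For regions without a call at 8 h alone that share was 68.0%, against a mean of 84.4% at the other times. The p at 48 h does not allow for this choice and is not by itself a test of loss. The libraries of 1 number read the same set of regions, and those of replicate 2 were above those of replicate 1 at 7 of 7 time points in both measures. With replicate number as a block, the exact permutation p was 0.0408 for 48 h and 0.0556 for both 24 h differences, the smallest a block allows there, so both 24 h calls were lost.

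A region can enter both defined sets, which ties the held-out values together. In simulated data without a loss, the test then passed its threshold more often than its nominal rate, and with sets that share no region it did not. The simulated calls were independent, whereas in these data a missing call in 1 replicate went with fewer calls in the other. The simulation thus covers shared regions but not the choice of regions by a missing call. With replicate 1 defining regions on odd chromosomes and replicate 2 on even ones, the differences were -71.4, -14.6 and -27.1, with the same exact permutation p of 0.0220, 0.0303 and 0.0303.

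**Figure D2:**
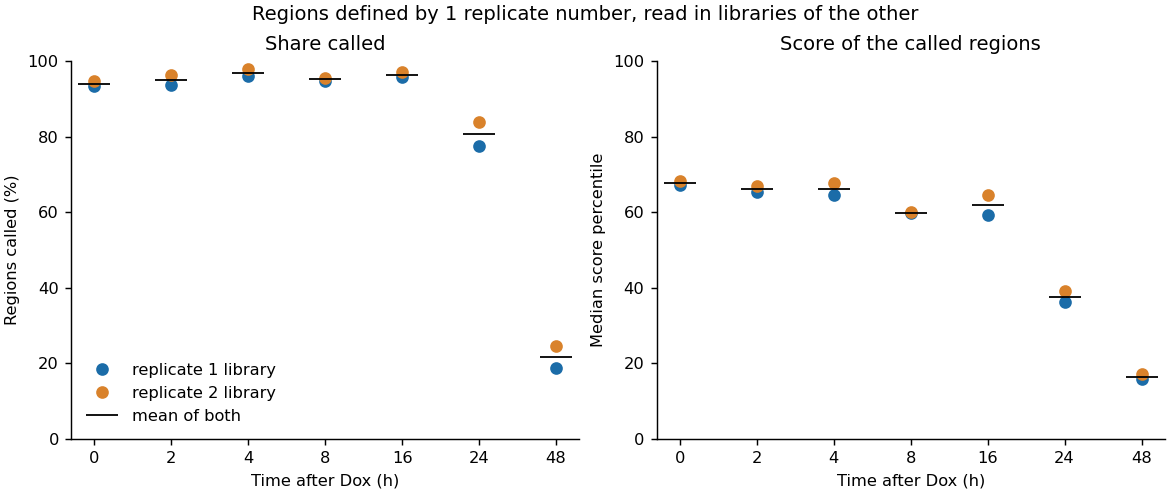
Left, share of regions called (%), and right, median score percentile of the called regions, against time after Dox in h, in the libraries whose calls took no part in selecting the regions. Points are single libraries and bars the mean of both. The share stays above 93% through 16 h, is 80.6% on average at 24 h and 21.6% at 48 h.

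The same selection was made for each other time point, to see how often a single missing call recurs in the other replicate. Regions without a call at 4 h alone numbered 262 and 292 by defining replicate, and 73.8% ± 7.43 (SD, n = 2) of them were called in the other 4 h library. At 24 h alone the numbers were 296 and 304, with 68.4% ± 7.42 called in the other library. At 48 h alone they were 2914 and 3061, with 21.6% ± 4.23 called. At 0 h alone they were 2241 and 2318, with 21.5% ± 2.69 called, and at 2 h alone 690 and 595, with 59.5% ± 11.6 called. Missing calls at 4 to 24 h alone were thus few and mostly absent from the other replicate, and those at the 2 ends were many and mostly shared. The selection favours this contrast. A middle time point counts only where a region lost its call and regained it, whereas an end needs 1 change. Regions without a call at both 24 and 48 h are not in the 24 h numbers. At each time point the share was below the mean of the other times, as with 68.4% against 83.5% at 24 h.

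**Figure D3:**
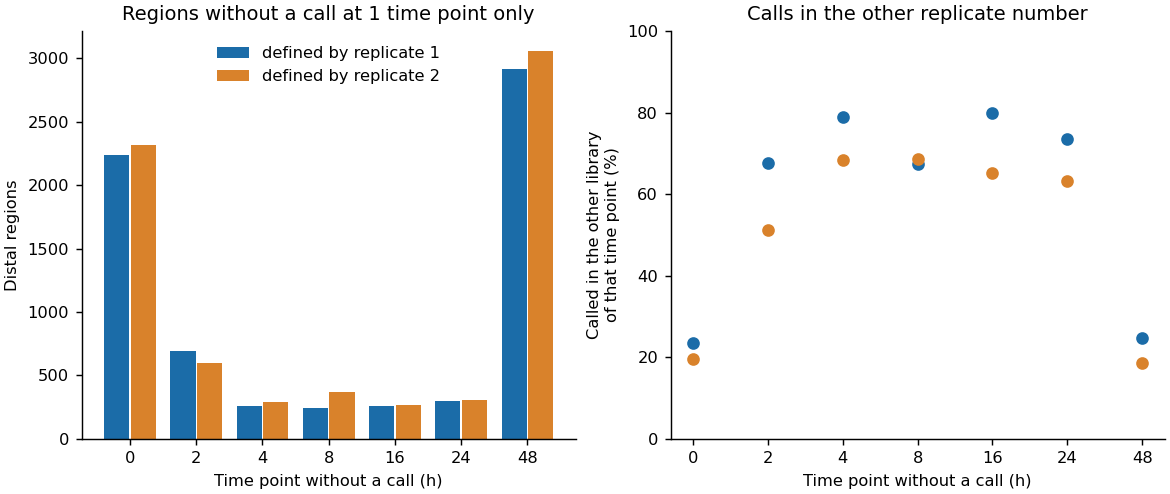
Left, number of distal regions without a call at 1 time point only (x axis, h), with bars for the defining replicate. Right, share of these (%) called in the library of the other replicate at that time point, 1 point per defining replicate. Bars are tallest at 48 h, with 2914 and 3061 regions, and next at 0 h, and there the share called in the other library is lowest.

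Many regions lay just outside the rule. Members came as close to a TSS as 1016 bp (nearest Whamm), and 452 regions within 1 kb met the other conditions, the farthest of them at 1000 bp (nearest Frrs1). A further 1612 regions differed only in being called in 1 of the 2 libraries at 48 h, and 10102 in being called in both. Calls in 1 of the 2 libraries at 0 h kept out 509. Of 3312 regions with 1 middle time point without a call, 2754 lacked it at 24 h, against 192, 65, 209 and 92 for the time points of 2, 4, 8 and 16 h.

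The 4 members outside chromosome 18 with the highest mean percentile over the 12 libraries of 0 to 24 h are described first. Their high ranks follow from that choice. The Lefty2 member, at chr1:180888308-180889516, had percentiles of 99.8 and 99.6 at 0 h, 99.1 and 99.4 at 2 h, 98.7 and 98.5 at 4 h, and 98.7 and 98.5 at 8 h. It was at 98.3 and 96.9 at 16 h and at 74.2 and 71.3 at 24 h, before it lost its peak at 48 h. It was lower in both 24 h libraries than in any earlier one. Of these 4, the Tbrg4 member had the highest mean percentile, 95.9. It lay in an exon 2369 bp from the TSS of this mitochondrial RNA-binding protein gene and was at 88.6 and 88.2 at 24 h. The Gulp1 member was at 85.4 and 76.0 and the Nostrin member at 63.0 and 77.8 at 24 h, against 91.4 or more in every earlier library for both. None of these 4 had a peak at 48 h.

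Members near pluripotency genes are described next. The 28 autosomal genes of a list of 30 pluripotency genes had 18 members within 50 kb of a nearest TSS, at 12 genes. The Tfap2c member, 25279 bp from the TSS of this AP-2 factor, was at 98.9 and 99.1 at 0 h, 98.2 and 98.2 at 2 h, 94.6 and 95.2 at 4 h, and 85.4 and 83.8 at 8 h. It went on to 70.3 and 65.5 at 16 h and 46.3 and 48.2 at 24 h, so its rank was lower at each time point from 4 h on than at the one before. The member in Esrrb, an orphan nuclear receptor of the naive pluripotency network, was at 94.9 and 92.8 at 0 h, 77.3 and 77.1 at 8 h, 80.2 and 78.6 at 16 h, and 35.3 and 36.1 at 24 h. The Klf5 member stayed at 94.0 or higher through 8 h, had 84.6 and 81.7 at 16 h, and was at 14.7 and 32.1 at 24 h.

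Both Zfp42 members were intergenic, 13987 and 24867 bp from the TSS of Zfp42 (REX1), a naive pluripotency marker. The nearer was highest at 0 h, at 99.4 and 98.5, and at 59.0 and 64.6 at 8 h, 75.5 and 74.6 at 16 h, and 36.9 and 43.9 at 24 h. The farther was lower at 0 h, at 56.6 and 71.2, than at 2 h, at 94.5 and 90.9, and was called in 1 library at 24 h, at 3.73. The member 19505 bp from Sall1, a zinc-finger gene, had the same order, at 64.1 and 77.6 at 0 h, 93.9 and 86.6 at 2 h and 23.2 and 45.3 at 24 h. The Mycn member, 1548 bp from the TSS, was at 92.8 and 94.0 at 0 h and at 56.8 and 54.2 at 24 h. The Utf1 member, 2012 bp from the TSS of this chromatin factor, was at 84.6 and 88.7 at 0 h and was called in 1 library at 24 h, at 53.4. The ranks of these members thus did not all move together.

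**Figure D4:**
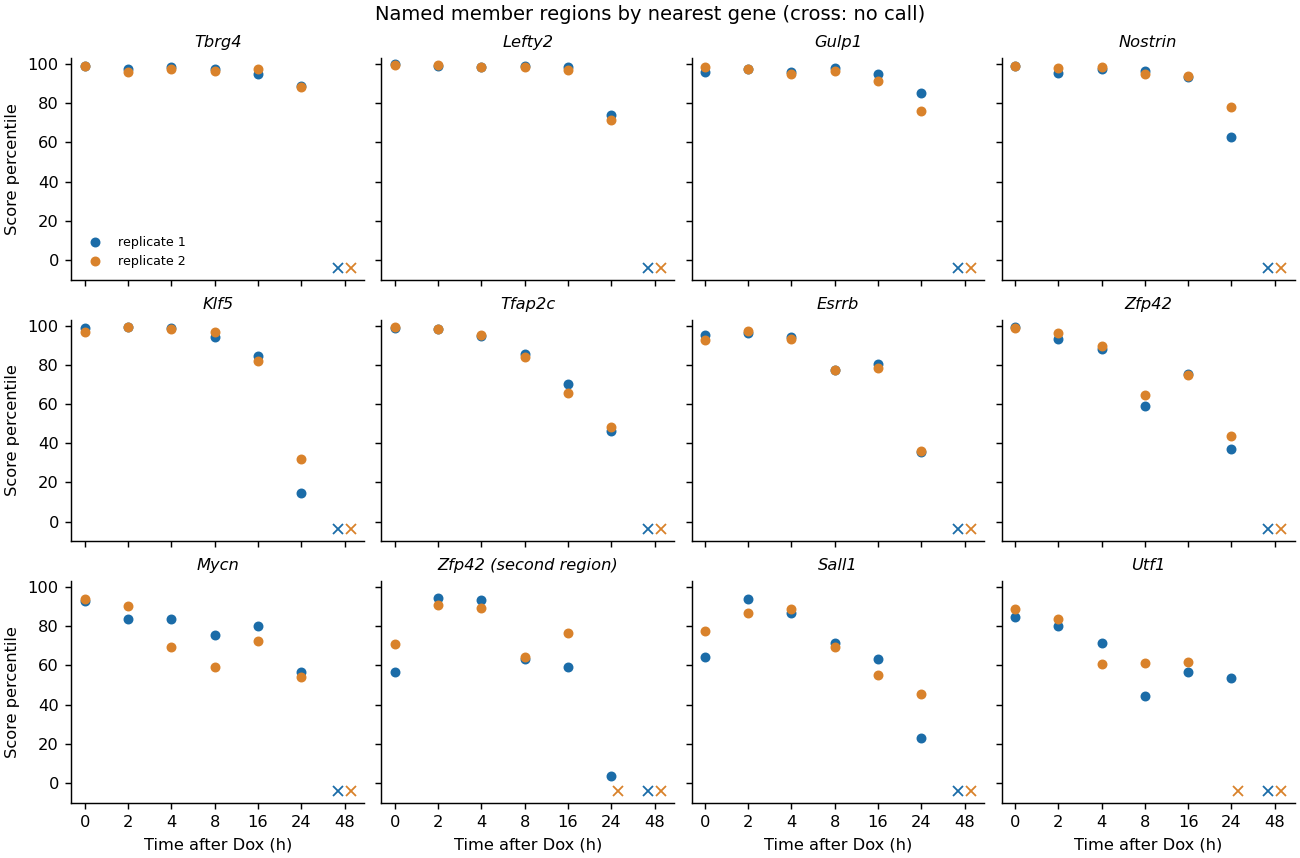
Score percentile (y axis) against time after Dox in h (x axis, evenly spaced) for 12 named members, titled by the nearest gene. Each point is 1 library and crosses mark libraries without a call. All 12 have no call in either 48 h library, and the Tbrg4, Lefty2, Gulp1 and Nostrin members stay above 91 through 16 h.

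Members were spread over the genome. They made up between 8.10% and 11.2% of the distal regions open at 0 h on each of the 19 autosomes. Of the members, 46.7% lay in introns, 6.23% in exons and 47.0% between genes, with a median distance to the nearest TSS of 17308.5 bp. Distal regions lost by 2 h lay at a median of 21372 bp, those lost at 4 to 8 h at 24937 bp, those lost at 16 to 24 h at 21355 bp and those called in all 14 lists at 13906.5 bp. Another member lay within 10 kb of 7.50% of the members, and 120 groups within 10 kb held 242 members. A member lay within 10 kb of 6.45%, 5.49% and 6.18% of the 3 classes lost earlier, in order of time. For regions called in all 14 lists the value was 6.76%, and for all distal regions 6.19%. A region gained at 48 h, called in both 48 h and neither 0 h library, lay within 10 kb of 24.4% of the members, against 22.0%, 21.1% and 19.9% of the 3 classes lost earlier, 29.7% of regions called in all 14 lists and 26.1% of all distal regions.

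Sequence was then compared between classes. These shares are descriptions, since regions are not replicates, and the values for regions defined from 1 replicate number show their spread. In the central 200 bp, the GATA motif was found in 10.3% of the members (11.5% and 11.6% of the regions defined from replicate 1 and 2). It was found in 4.37% of regions lost by 2 h, 5.75% of those lost at 4 to 8 h, 11.5% of those lost at 16 to 24 h, 11.4% of those called in all 14 lists and 19.5% of all distal regions. A permuted control, AAGTAA, was found in 7.06% of the members, 9.58% of regions lost by 2 h and 8.28% of all distal regions. The GATA share of the late-lost classes thus exceeded that of the early-lost ones but not that of distal regions in general.

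The AP-1 motif (TGANTCA), bound by FOS and JUN proteins, was found in 10.5% of the members (11.36% and 11.04% by defining replicate). It was found in 3.05% of regions lost by 2 h, 8.56% of those lost at 4 to 8 h and 14.1% of those lost at 16 to 24 h. It was found in 7.73% of regions called in all 14 lists and 13.1% of all distal regions. The TCF motif (CTTTGAT), read by the WNT-pathway factors of the TCF family, was found in 3.87% of the members. The classes lost earlier had higher shares, 8.74%, 5.75% and 5.37% in order of time. Regions called in all 14 lists had a lower one, 2.72%, and all distal regions had 3.99%. The KLF motif was found in 9.36% of the members (8.58% and 9.28% by defining replicate). This share was above the 7.54% of regions lost by 2 h and the 5.48%, 5.61% and 5.20% of those lost at 4 to 8 h, lost at 16 to 24 h and called in all 14 lists, and above the 5.49% of all distal regions.

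The octamer was found in 8.30% of the members, below the 9.34%, 10.6% and 10.7% of the 3 classes lost earlier and above the 5.11% of regions called in all 14 lists and the 6.20% of all distal regions. The Oct4-Sox2 motif had the same order, at 1.77% of the members, 2.14%, 2.74% and 2.90% of the classes lost earlier, 0.695% of regions called throughout and 1.11% of all distal regions. Any of the 8 pluripotency motifs was found in 42.9% of the members, 48.0% of regions lost by 2 h and 36.2% of those called in all 14 lists. The CTCF motif, bound by the architectural protein at loop anchors, was found in 0.403% of the members and 5.57% of regions called in all 14 lists, with 2.85% of all distal regions. It was also found in 0.927% and 0.849% of the regions defined from a single replicate number, so that share moved with the number of libraries behind the definition.

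For the other motifs searched, the first value is the share of the members and the second that of all distal regions. These were SOX (15.4% and 17.3%), TEAD (ACATTCC, 4.55% and 5.48%), OTX (GGATTA, 6.10% and 6.30%), ZIC (CAGCAGG, 13.2% and 12.1%), NFY (CCAAT, 24.2% and 22.3%) and the E-box (CACGTG, 3.66% and 3.09%). TFAP2 (GCCNNNGGC) was found in 7.40% and 6.62%, TFCP2L1 in 8.30% and 7.07%, and ESRR/NR5A in 10.01% and 8.26%. STAT was found in 1.15% of both. FOXA (TGTTTAC), bound by endoderm factors, was found in 2.20% of the members and 3.44% of all distal regions, and HNF1 (GTTAATNAT) in 0.372% and 0.733%. GRHL (AACCNGGTT) and PRDM14 matches were rare, in 0.0620% and 0.217% of the members against 0.170% and 0.166% of all distal regions.

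Base composition also differed between the classes. The median GC content was 51% in the members, 49% in regions lost by 2 h, 47.5% in those lost at 4 to 8 h, 48.5% in those lost at 16 to 24 h and 53% in those called in all 14 lists. In windows of 48 to 54% GC, 10.2% of 1379 members had a KLF match, against 8.55% of regions lost by 2 h, 6.86% of those lost at 4 to 8 h and 5.69% of those lost at 16 to 24 h. In the same windows the AP-1 shares were 11.5%, 2.55%, 8.44% and 13.4%, and the TCF shares 4.21%, 8.10%, 4.89% and 4.69%, for members and the 3 classes in that order. The GATA shares were 8.12%, 3.54%, 3.41% and 8.44%. The order of the other 2 motifs changed at similar GC content. The octamer shares were 8.34%, 8.72%, 8.93% and 8.005%, so members were no longer below the regions lost at 16 to 24 h. The Oct4-Sox2 shares were 1.74%, 1.69%, 2.07% and 2.50%, so members were no longer below the regions lost by 2 h. At similar GC content, members thus had the lowest TCF share of the 4 classes, and AP-1 shares between those of the classes lost by 8 h and those lost at 16 to 24 h. Their KLF share was the highest. Regions defined from replicate 1 and 2 had KLF shares of 8.53% and 9.15%, so the order against regions lost by 2 h is within that spread. Their GATA shares were 9.11% and 9.61%, so the order of members against regions lost at 16 to 24 h is not settled either.

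**Figure D5:**
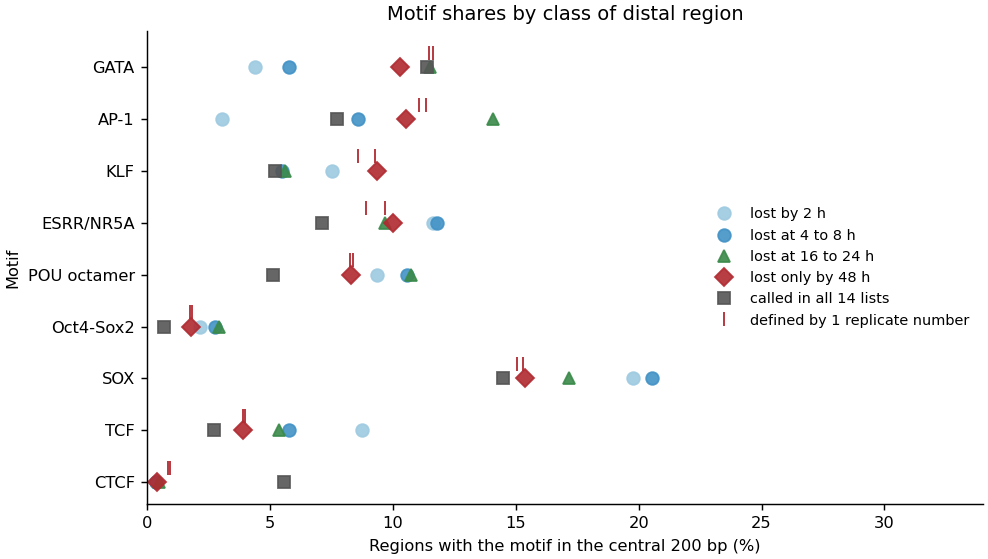
Share of regions (%) with at least 1 match in the central 200 bp (x axis) for 9 motifs (y axis) in 5 classes of distal region. Ticks above each row show regions defined from 1 replicate number. Members (diamonds) have the highest KLF share, 9.36%, and GATA and AP-1 shares above those of regions lost by 2 h or at 4 to 8 h.

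The nearest TSS, up to 50 kb away, placed 2448 members at 2020 genes. Of the 24211 distal regions open at 0 h that could be assigned, 10.1% were members. Most genes had 1 member, 70 had 3 or more, and the 3 with the most were Tenm4, Nav1 and Dst. A further 11 genes tied at 4 members, of which the first 7 by symbol are Bdh1, Chd9, Epb41l4a, Esrrb, Glrx5, Myo10 and Rbfox2. Tenm4, a teneurin of the cell surface, had 7 members among 26 distal regions open at 0 h, with 6 lost by 2 h, 8 at 4 to 8 h, 2 at 16 to 24 h and 3 called in all 14 lists. Nav1, a microtubule-binding navigator, had 6 members of 19, and Dst, a cytoskeletal linker, had 5 of 24 together with 6 regions gained at 48 h. Esrrb had 4 members of 17, with 2, 2 and 3 lost in the earlier classes, 4 called in all 14 lists and 5 gained at 48 h.

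The study's Epi and PrE gene lists, made from blastocyst data, were then read. Of 692 distal regions open at 0 h and assigned to the 218 autosomal Epi genes, 97 were members, or 14.02%, against 10.1% of all assigned regions. Of 982 assigned to the 570 autosomal PrE genes, 87 were members, or 8.86%. Epi genes took 3.96% of the assigned members (4.09% and 3.53% by defining replicate), 2.21% of the regions lost by 2 h, 3.21% of those lost at 4 to 8 h and 3.66% of those lost at 16 to 24 h. They took 2.91% of those called in all 14 lists and 2.34% of all assigned distal regions. PrE genes took 3.55% of the assigned members (3.37% and 3.36%), and 3.91%, 3.68% and 2.89% of the 3 classes lost earlier, in order of time. They took 5.03% of the assigned regions called in all 14 lists and 4.91% of all assigned distal regions. Among Epi genes, Chd9, Myo10 and Ttc39b had 4 members each, and Bcat1, Foxd3, Tgif1 and Tns3 had 3. Among PrE genes, Id2, an inhibitor of helix-loop-helix factors, and Tacc2 had 3 each.

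Short lists gave small numbers. Pluripotency genes had 18 members of 128 distal regions open at 0 h, or 14.1%, with 4 at Esrrb, 2 each at Tbx3, Zfp42 and Mycn, and 1 each at Klf5, Prdm14, Tfap2c, Tdgf1, Utf1, Lifr, Sall1 and Jarid2. The lists overlap: Tbx3 and Klf5 are also on the study's PrE list, and Tdgf1, Utf1 and Jarid2 on its Epi list. Nanog and Pou5f1 each had 4 distal regions open at 0 h and no member. Formative and primed epiblast genes, which mark the exit from the naive state, had 12 members of 53, or 22.6%, with 3 at Foxd3, 2 each at Tcf15 and Grhl2, and 1 each at Otx2, Fgf5, Dnmt3a, Etv5 and Lefty2. At Fgf5, Lefty2, Sox17 and Sox7 the only assigned distal region open at 0 h was a member. PrE factors had 6 members of 40, or 15%, 1 each at Sox17, Sox7, Foxa2, Lamc1, Col4a1 and Sparc, and Sox17 had 6 regions gained at 48 h beside its 1 member. Trophectoderm genes had 5 members of 41, or 12.2%, with 3 at Tead4 and 1 each at Elf5 and Tfap2a, and other lineage genes had 2 of 19, or 10.5%, at Sox1 and Neurog1. Over all assigned distal regions open at 0 h the share was 10.1%, and with so few regions a list nothing is read from the distance of these shares to it.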

How the data were processed

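ATAC-seq peak lists of 14 libraries, 2 at each of 7 time points, were used as deposited. The authors made them with the ATAC-seq pipeline of ENCODE. File names state that peaks passed an irreproducible discovery rate of 0.05 on pseudoreplicates of each library and a blacklist filter, so replicates were not pooled. The submitters' processing notes name mm10 and GRCm38. The deposited score of each peak has no stated scale and was used only as a rank within its list. The study's test of read counts was not run, since the lists hold no counts, and depth is unknown.

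Members and gene lists were chosen with earlier results of these data known. Autosomal peaks were merged with Python 3.11.15 and numpy 2.4.6, and distances were measured to 98086 transcript starts of protein-coding genes (GENCODE vM21). Named regions were all taken outside chromosome 18. They were the 4 members called in all 12 libraries of 0 to 24 h with the highest mean percentile. To these were added up to 8, at most 2 a gene, near pluripotency genes. Sequences are printed for 3 of the first set, the fourth touching an untranslated region, and for those of the second set that hold a marked motif. Named genes were the 10 with the most members, ties by symbol, and list genes with members. In all, 22 motifs were searched in the central 200 bp. Exact two-sided permutation tests over libraries, first tested on simulated data with independent calls, had Benjamini-Hochberg adjustment over 3 tests. Over all distal regions, call differences between replicates did not recur, with correlations of -0.0119 to 0.00847 over 21 pairs of time points. On that basis replicate numbers were not taken as pairs in the main tests. This check cannot see a shift of whole libraries. The held-out values of replicate 2 libraries did lie above those of replicate 1 at every time point. The tests with a replicate block are therefore given too. The closing section gives the alternatives.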

Additional observations from a re-analysis of the deposited data

How the results depend on the processing

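The 3228 members became 2620 with the 50000 highest-scoring peaks of each list, 2864 when 50% of a region had to be covered, 3160 after peaks up to 100 bp apart were merged, 2641 with a TSS distance of 5 kb, 3090 with the TSSs of every annotated gene and, chosen after seeing the data, 3457 with gene starts of protein-coding genes. Without 1 library they ranged from 2517 to 4147, lowest without 24 h replicate 2 and highest without 48 h replicate 2. The held-out differences kept their direction under every alternative run, and under the 50000 highest-scoring peaks, 50% coverage, merging, 5 kb, peak width ranks (for the percentile, -7.78) and, chosen after seeing the data, sets without shared regions, they stayed past the threshold. With a replicate block, the exact permutation p was 0.0408 for -71.4 at 48 h, and 0.0556 for both -14.9 and -26.7 at 24 h, where it is the smallest p the block allows, so those calls were lost. Without 1 library the differences ranged from -74.4 to -68.4 at 48 h against 0 to 24 h, from -18.1 to -11.7 for the share at 24 h and from -28.1 to -25.3 for the percentile at 24 h. Leaving out either library of 48 h or 24 h left 1 in that group, and no p under 0.05 could then be reached. The Epi share of assigned members, 3.96%, was 4.396% within 10 kb and 3.53% for regions defined without replicate 1. The PrE share, 3.55%, was 3.75% within 10 kb, 3.48% within 100 kb, 3.60% with 5 kb, 3.14% with the 50000 highest-scoring peaks, and 3.37% and 3.36% for regions defined without replicate 2 and 1. The Epi share was the higher in all of these. The 2 shares are not on a like footing, as they rest on 218 Epi and 570 PrE genes. These genes took 2.34% and 4.91% of all assigned distal regions, values given for the main setting only. Longer sequence raised all 22 motif shares over 1.5 times. In 400 bp windows and in whole regions, GATA was found in 20.2% and 30.5% of the members, AP-1 in 18.2% and 26.3%, KLF in 14.9% and 19.8%, TCF in 7.497% and 11.7%, the octamer in 13.8% and 18.7%, Oct4-Sox2 in 2.97% and 4.00%, CTCF in 1.02% and 1.43% and the GATA control in 14.4% and 23.2%. In 400 bp windows of the other classes, examined after seeing the data, members kept the highest KLF and lowest TCF share of the 4 lost classes, with KLF at 11.8%, 9.58% and 9.65% and TCF at 13.9%, 9.84% and 9.11% in those lost earlier. Of 160 motif and GC values under alternatives, 117 moved by more than the spread of regions defined from 1 replicate number. Median GC stayed between 50.2% and 51.5%. Unknown depth limits every missing call.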
